A study of Homo sapiens with 6 samples.

Results

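The miR-34 and miR-449 family is a set of microRNAs that share a seed, the bases near the 5′ end by which a microRNA pairs with its target transcripts. The 9 mature names of the family (hsa-miR-34a-5p, hsa-miR-34a-3p, hsa-miR-34b-5p, hsa-miR-34b-3p, hsa-miR-34c-5p, hsa-miR-34c-3p, hsa-miR-449a, hsa-miR-449b-5p and hsa-miR-449c-5p) were taken by exact name from the rows of known mature miRNAs, of which the tables hold 1727 names over 6 libraries. All 9 had a row in every library, and no joined row held a further copy of a member. Small RNA was sequenced from BEAS-2B, a human bronchial epithelial line immortalised with an adenovirus and SV40 hybrid virus. The line is thus a virally transformed model and not primary airway epithelium. Per the labels, 3 control libraries came from cells given pcDNA3.1, an empty plasmid, and 3 PRMT1 libraries from cells given pcDNA-PRMT1, each for 48 h. PRMT1 is the arginine methyltransferase that makes most asymmetric dimethylarginine in cells, and its own level was not measured in these small RNA data. Nothing in the labels ties the replicates to separate cultures, and a p-value here measures only the spread between these libraries, which may be technical.

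The family has 3 branches with different regulation. MiR-34a is broadly expressed and represses genes of cell cycle entry and survival. MiR-34b and miR-34c are made from a single primary transcript and are abundant in the multiciliated cells of the airway. MiR-449a, miR-449b and miR-449c lie in an intron of CDC20B, rise when airway progenitors become multiciliated cells, and promote ciliogenesis by repressing CCP110 and members of the Notch pathway.

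The RefSeq table used here (GRCh38.p14) gave the mature sequence of 8 of the 9 names, all but miR-34c-5p. They are shown here because the family is defined by them, with the seed (bases 2 to 8) in capitals. The first set shares the seed GGCAGUG.
miR-34a-5p: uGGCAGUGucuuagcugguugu
miR-449a: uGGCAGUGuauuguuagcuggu
miR-449b-5p: aGGCAGUGuauuguuagcuggc

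In the next set the same 7 letters start 1 base later, at base 3, so that the seed by position reads AGGCAGU. MiR-2682-5p is no member of the family and is shown because it was the only other name with this seed in the RefSeq table.
miR-34b-5p: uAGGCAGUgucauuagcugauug
miR-449c-5p: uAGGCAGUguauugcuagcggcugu
miR-2682-5p: cAGGCAGUgacuguucagacguc

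The opposite arms of the miR-34 hairpins carry other seeds, shown because 2 of them outnumbered their 5p partners.
miR-34a-3p: cAAUCAGCaaguauacugcccu
miR-34b-3p: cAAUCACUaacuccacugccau
miR-34c-3p: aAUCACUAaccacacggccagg

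The letters GGCAGUG occurred at any position in 16 of 2370 mature names of the table, or 0.675%. Of the names in the table, 3 had them at bases 2 to 8, and all 3 are members. MiR-449a and miR-449b-5p differ at 2 of 22 positions, U1A and U22C (the base of miR-449a first, positions counted from the 5′ end). How the authors assigned reads that match both was not given in the sources used here, so the division between these names is uncertain. MiR-34a-5p and miR-449a share their first 9 bases and differ at 7 of 22 positions when set side by side without gaps.

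The hairpins lie at 3 loci on GRCh38. MIR34A is at chr1:9151668-9151777 on the minus strand, within an exon of the long non-coding gene MIR34AHG in GENCODE release 29. MIR34B, at chr11:111512938-111513021, and MIR34C, at chr11:111513439-111513515, are on the plus strand with 417 bases between them. MIR449A (chr5:55170532-55170622), MIR449B (chr5:55170646-55170742) and MIR449C (chr5:55172262-55172353) are on the minus strand in introns of CDC20B.

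Libraries were of similar depth, at 23.95 M to 25.79 M counts in all and 11.54 M to 16.42 M counts of known miRNAs. Levels are given in CPM, counts scaled to the known miRNA total of a library after TMM scaling, a correction for differences in composition. Control library 2 stood apart, with the highest known miRNA count and a TMM factor of 0.761 against 0.986 to 1.11 in the others, so results that rest on it are given without it as well. Of 668 names with enough counts to be tested, 0 (0%) passed an adjusted p of 0.05 in edgeR's quasi-likelihood test with Benjamini-Hochberg adjustment. At an unadjusted p under 0.05 there were 36 (5.39%) in the same test. At an adjusted p of 0.05, limma-voom called 0 of the same 668. DESeq2 was run on all 1727 known names with its own filter and called 4, so its count is not out of the same names. Of the 7 epithelial markers, miR-200a-3p, miR-429 and miR-200b-3p, members of a family that maintains epithelial state, stood at means of 4009, 2371 and 2230 CPM over the 6 libraries. The others were far lower, with miR-200c-3p and miR-141-3p of the same family at 48.3 and 20.4 CPM and miR-205-5p and miR-203a-3p at 6.37 and 3.26 CPM. Endothelial miR-126-3p stood at 1901 CPM, near the level of miR-200b-3p. The 7 epithelial markers summed to 7746 to 10090 CPM in control and 7999 to 8876 CPM in PRMT1 libraries, with 0 of 7 past the threshold, 4 above 0 and 3 below. MiR-429 had groups that did not overlap (log2 -0.28, SE 0.20, edgeR adjusted p = 0.789), with PRMT1 libraries lower, as had 4.79% of all tested names. MiR-205-5p did not overlap either, with PRMT1 libraries higher.

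The family was almost entirely miR-34a-5p in both groups. Hsa-miR-34a-5p stood at 4147, 4711 and 3760 CPM in control and 3880, 4017 and 4457 CPM with PRMT1, and ranked 26 to 32 among all known miRNAs. The groups overlapped throughout. The log2 fold change was -0.03 (SE 0.17, 95% interval -0.41 to 0.34, edgeR adjusted p = 0.983), and lay above 0 with library size as the only scaling or without control library 2. This name alone carried 95.4% to 96.2% of family counts in control and 96.5% to 97.0% in PRMT1 libraries. It therefore makes up most of the denominator of each share of family counts.

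The next member by abundance was hsa-miR-449a, and it was the one member whose groups did not overlap. Its counts were 2046, 1855 and 1549 in control, and 1508, 1032 and 1198 with PRMT1. On the CPM scale the control libraries stood at 150.2, 148.4 and 120.5 and the PRMT1 libraries at 98.1, 84.9 and 100.2. Each PRMT1 library lay below each control library. The log2 fold change was -0.57 (SE 0.24, 95% interval -1.10 to -0.03), or 0.676 times the control level. In edgeR's quasi-likelihood test its unadjusted p was 0.0415 and its adjusted p 0.741, so it did not pass the threshold. Of all tested names, 10.2% had groups that did not overlap, 4.79% with PRMT1 libraries lower, so 1 of 9 members is near the background. At an unadjusted p under 0.05, lower in PRMT1, there were 2.54% of all tested names and 1 of 9 members. The log2 fold change was -0.54 without control library 2, and lay between -0.72 and -0.51 under all 16 other settings and omissions. These reuse the same libraries, and the unadjusted p was not stable. In edgeR it was 0.0986 with library size only and 0.0802 with the replicate block. It ran from 0.0216 without control library 3 to 0.124 without control library 1. In bulk RNA, fewer cells that make a miRNA and less of it per cell cannot be told apart.

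**Figure D1:**
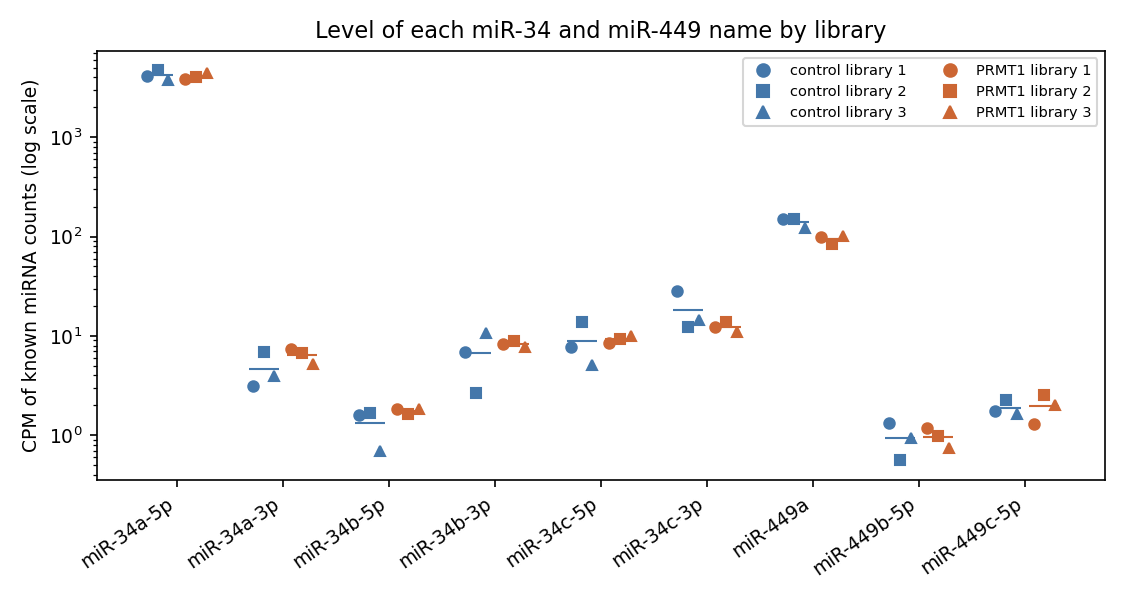
Level of each of the 9 names in CPM of known miRNA counts (log axis), 1 point per library and a line at the mean of each group of 3. MiR-34a-5p sits at 3760 to 4711 CPM in every library, miR-449a at 84.9 to 150 CPM with the PRMT1 libraries below the control libraries, and the other names under 30 CPM.

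The other names of the miR-449 branch had few counts. MiR-449b-5p had 18, 7 and 12 counts in the control libraries and 18, 12 and 9 with PRMT1. MiR-449c-5p had 24, 28 and 21 counts in the control libraries and 20, 31 and 24 with PRMT1. Groups overlapped for both, and log2 fold changes were 0.05 (SE 0.44) and 0.05 (SE 0.36). Their directions were not stable: that of miR-449b-5p was below 0 with all classes of rows, and that of miR-449c-5p with RLE or upper quartile scaling, limma-voom or all classes of rows. MiR-449a held 97.9% to 98.2% of the 5p counts of this branch in control and 96.0% to 97.5% in PRMT1 libraries, and its hairpin lies 23 bases from that of miR-449b. The opposite arm of the miR-449b hairpin, miR-449b-3p, had 11, 4 and 15 counts in the control libraries and 5, 6 and 13 with PRMT1.

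Reads assigned to the precursor families, listed apart from the mature names, were few. The mir-449 family had 45, 48 and 20 counts in the control libraries and 26, 43 and 33 with PRMT1, which overlapped. The mir-34 family had 0, 6 and 3 counts in the control libraries and 1, 4 and 1 with PRMT1.

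The miR-34b and miR-34c names stood at 0.70 to 28.1 CPM, and their groups overlapped. Counts of hsa-miR-34c-3p were 383, 153 and 187 in control, and 190, 167 and 131 with PRMT1. In CPM this was 28.1, 12.2 and 14.5 against 12.4, 13.7 and 11.0, with control library 1 alone above the rest. Its log2 fold change was -0.57 (SE 0.35, edgeR adjusted p = 0.769), close to that of miR-449a, and was -0.13 without control library 1. Hsa-miR-34c-5p had 106, 171 and 65 counts in the control libraries and 131, 112 and 120 with PRMT1. Control library 2 was the highest and control library 3 the lowest of all 6. Its log2 fold change was 0.07 (SE 0.37), or 0.51 without control library 2 and -0.25 without control library 3, and it lay below 0 with upper quartile scaling or all classes of rows.

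MiR-34b-3p had 94, 33 and 139 counts in the control libraries and 127, 107 and 92 with PRMT1. Here control library 2 was the lowest and control library 3 the highest, the reverse of miR-34c-5p, the other arm of the neighbouring hairpin. Like arms differed less: among control libraries miR-34c-3p was also lowest in library 2, and miR-34b-5p, as miR-34c-5p, in library 3. The log2 fold change of miR-34b-3p was 0.28 (SE 0.45), and -0.12 without control library 2 and 0.71 without control library 3. MiR-34b-5p had 22, 21 and 9 counts in the control libraries and 28, 20 and 22 with PRMT1, and its log2 fold change was 0.41 (SE 0.40), or 0.05 without control library 3. MiR-34a-3p, the passenger of miR-34a, had 43, 87 and 51 counts in the control libraries and 113, 82 and 62 with PRMT1. Its log2 fold change was 0.46 (SE 0.36), or 0.22 without control library 1 and 0.84 without control library 2. Across the 4 miR-34b and miR-34c names the coefficient of variation was 41.1% to 60.3% over control and 6.10% to 11.2% over PRMT1 libraries. The 6.10% is that of miR-34b-5p, which rests on 20 to 28 counts per library. MiR-449c-5p went the other way, at 17.0% over control and 32.0% over PRMT1 libraries. Every other member was also lower over PRMT1 libraries, with miR-34a-3p at 42.7% and 17.4%. This difference in spread was not tested, nor was its share among all tested names taken.

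The 9 members lay above 0 in 6 cases and below 0 in 3, with a median log2 fold change of 0.05, against a median of 0.04 over all 668 tested names, of which 360 lay above 0. All 9 passed the filter on low counts, and 0 passed the threshold. The lowest adjusted p was 0.741. SEs ran from 0.17 for miR-34a-5p to 0.45 for miR-34b-3p, so a shift of the size seen in miR-449a exceeds 2 SEs for miR-34a-5p and miR-449a and for no other member.

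**Figure D2:**
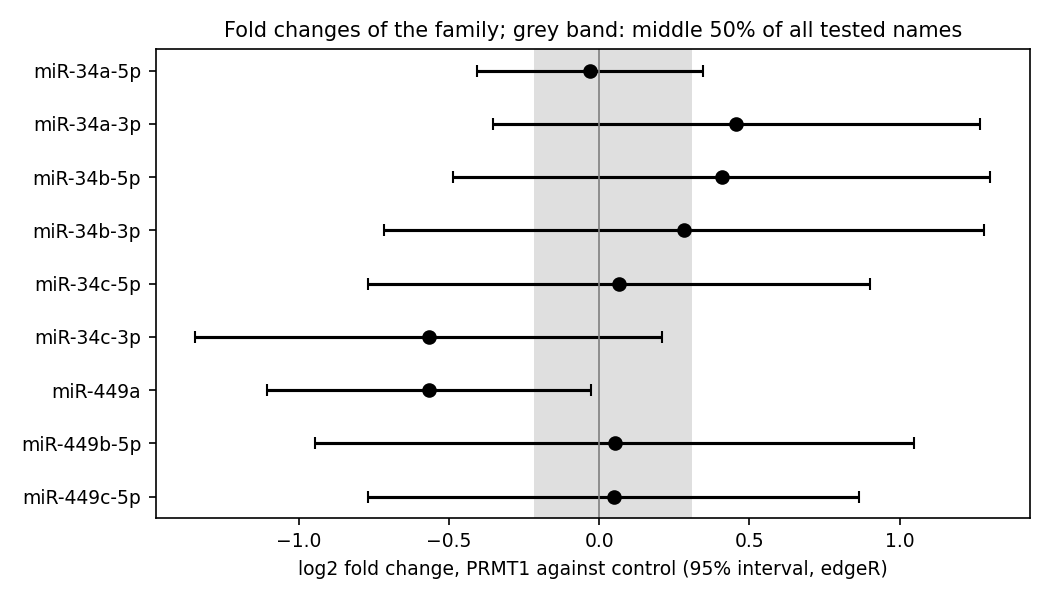
Log2 fold change of PRMT1 against control libraries for each member, with its 95% interval from edgeR, over a grey band that marks the middle 50% of all 668 tested names (-0.22 to 0.31). Of the 9 intervals, that of miR-449a (-1.10 to -0.03) is the one that does not reach 0 before adjustment.

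Ordered by mean level, the members ran miR-34a-5p (4162 CPM), miR-449a (117.0), miR-34c-3p (15.3), miR-34c-5p (9.05), miR-34b-3p (7.52), miR-34a-3p (5.56), miR-449c-5p (1.92), miR-34b-5p (1.55) and miR-449b-5p (0.954). MiR-34a-5p exceeded miR-449a 35.6-fold and miR-449a exceeded miR-34c-3p 7.64-fold, with ranges over the 6 libraries that did not overlap. The ranges of miR-34a-3p and miR-449c-5p did not overlap either, while every other pair of neighbours overlapped. How efficiently each sequence is captured in a library was not tested, which limits these ratios between names.

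The balance of the branches was taken as the share of family counts in the 7 names of the airway multiciliated cell, which are those of miR-34b, miR-34c and miR-449. This share does not depend on scaling. It was 4.55% (95% Wilson interval 4.38 to 4.72), 3.70% (3.56 to 3.86) and 3.94% (3.77 to 4.11) in control libraries. In PRMT1 libraries it was 3.27% (3.14 to 3.42), 2.94% (2.79 to 3.09) and 2.91% (2.77 to 3.05). The intervals cover counting error only. Every PRMT1 library lay below every control library, at 3.04% ± 0.204 (SD, n = 3) against 4.06% ± 0.435 (SD, n = 3). No p is given for this share, since the members were chosen with results of these data known.

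Of the difference of -1.02 percentage points, -0.963 lay in miR-449a. This name held 3.45%, 3.03% and 3.08% of family counts in control and 2.44%, 2.05% and 2.18% in PRMT1 libraries. Per 1000 counts of miR-34a-5p there were 36.2, 31.5 and 32.1 counts of miR-449a in control and 25.3, 21.1 and 22.5 in PRMT1 libraries. The names of miR-34b and miR-34c held 1.02%, 0.617% and 0.794% in control and 0.771%, 0.805% and 0.664% with PRMT1, which overlapped. With miR-449a left out of the family, the share of the remaining multiciliated-cell names averaged 0.905% ± 0.218 (SD, n = 3) over control libraries, against 0.834% ± 0.0858 (SD, n = 3) with PRMT1, and overlapped. The sum of the family, nearly all miR-34a-5p, 3918 to 4900 CPM in control and 4019 to 4595 CPM in PRMT1 libraries, overlapped between groups. The difference of the means was -135 CPM, and 120.8 CPM without control library 2.

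**Figure D3:**
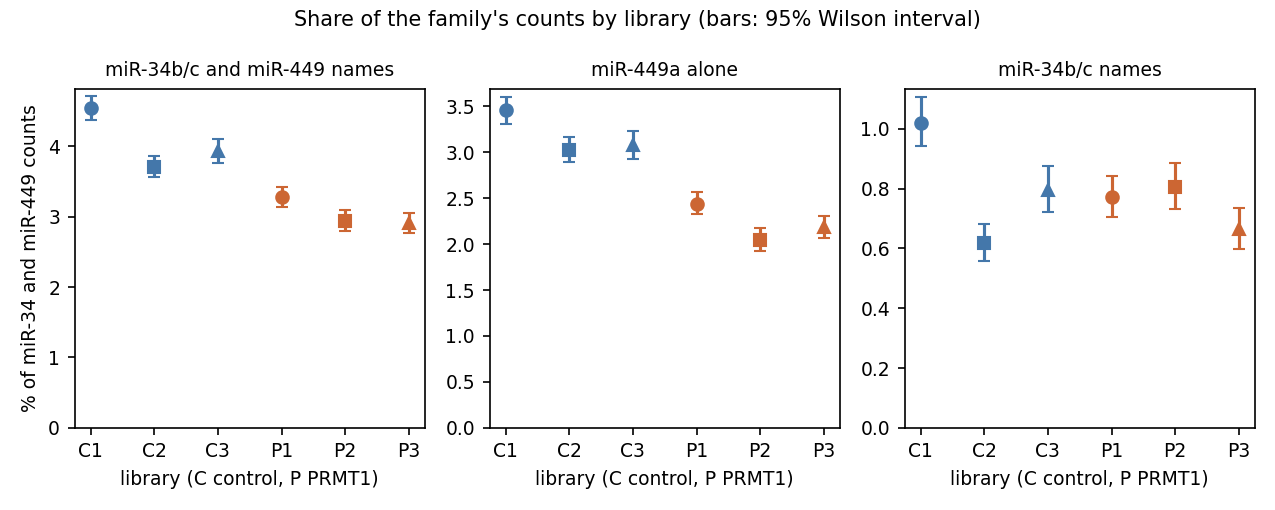
Percent of the counts of the 9 members held by the miR-34b, miR-34c and miR-449 names together, by miR-449a and by the miR-34b and miR-34c names, 1 point per library with its 95% Wilson interval. PRMT1 libraries (P1 to P3) lie below control libraries (C1 to C3) in the first 2 panels, at 2.91% to 3.27% against 3.70% to 4.55% and 2.05% to 2.44% against 3.03% to 3.45%, and overlap with them in the last.

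Arm use set miR-34a apart from miR-34b and miR-34c, whose 5p shares overlapped each other. In miR-34a the 5p arm took 99.8% to 99.9% of the counts of both arms in every library. In miR-34b the 3p arm was the more abundant in 6 of 6 libraries, and in miR-34c in 5 of 6, the exception being control library 2. The hairpin of miR-34b is printed as the example of a 3p excess, with its 5p and then its 3p mature sequence in capitals.
MIR34B: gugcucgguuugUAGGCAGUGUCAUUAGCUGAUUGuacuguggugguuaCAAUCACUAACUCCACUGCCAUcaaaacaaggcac

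The 5p share of miR-34b was 19.0% (95% Wilson interval 12.9 to 27.1), 38.9% (27.0 to 52.2) and 6.08% (3.23 to 11.2) in control libraries. In PRMT1 libraries it was 18.1% (12.8 to 24.9), 15.7% (10.4 to 23.1) and 19.3% (13.1 to 27.5). For miR-34c it was 21.7%, 52.8% and 25.8% in control, and 40.8%, 40.1% and 47.8% with PRMT1. Control library 2 had the highest 5p share of all 6 libraries for both hairpins, and the other 2 control libraries lay below every PRMT1 library for miR-34c. Differences of the mean 5p share between groups were -0.048 percentage points for miR-34a, -3.61 for miR-34b and 9.51 for miR-34c. Two-sided exact permutation tests gave p = 0.2, p = 0.8 and p = 0.4 (Benjamini-Hochberg 0.6, 0.8 and 0.6 over the 3 hairpins), where 3 against 3 libraries cannot go below 0.1. Without control library 2 the difference was 5.18 for miR-34b and 19.2 for miR-34c. For miR-34c it fell to 3.635 without control library 1 and to 5.69 without control library 3.

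**Figure D4:**
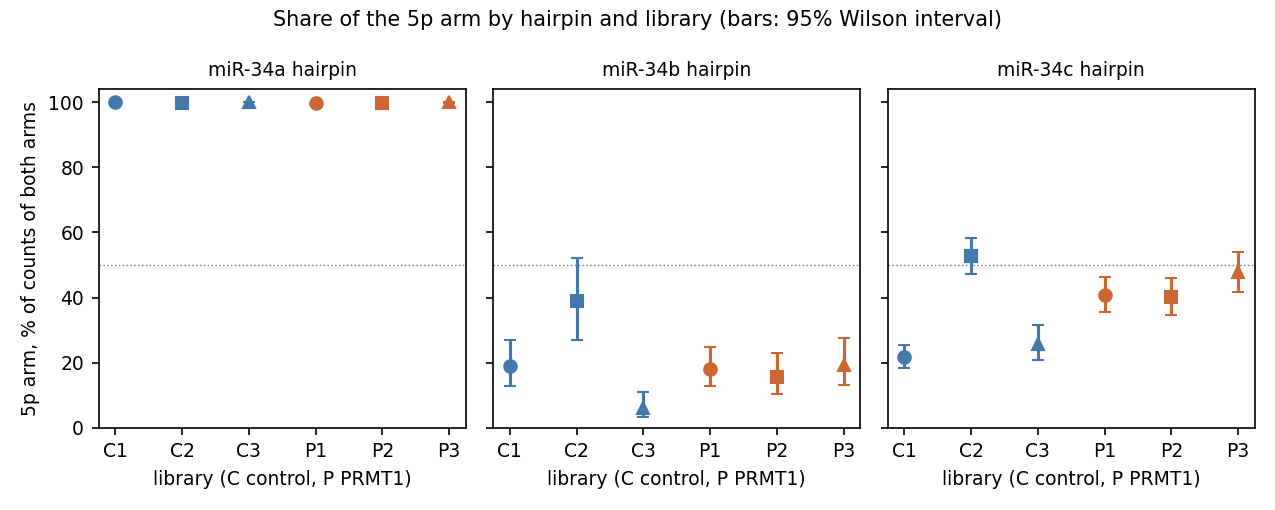
Share of the 5p arm in the counts of both arms for the miR-34a, miR-34b and miR-34c hairpins, 1 point per library with its 95% Wilson interval and a dotted line where the arms are equal. MiR-34a lies at 99.8% to 99.9%, miR-34b at 6.08% to 38.9% and miR-34c at 21.7% to 52.8%, with control library 2 (C2) the highest for the last pair.

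MiR-2682-5p, which has the seed of miR-34b-5p and miR-449c-5p, was more abundant than either. It stood at 32.0, 50.9 and 38.0 CPM in control and 24.1, 40.0 and 28.7 CPM with PRMT1, which overlapped (log2 -0.38, SE 0.28). It held most of the counts with this seed, which summed to 35.4 to 54.8 CPM in control and 27.3 to 44.2 CPM in PRMT1 libraries. The 3 names shown with the seed GGCAGUG summed to 3881 to 4860 CPM in control and 3979 to 4558 CPM in PRMT1 libraries. MiR-34c-5p was assigned to neither seed here.

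Other markers of the multiciliated cell were at or near 0. Of the 11 names listed for this cell, miR-449c-3p had no row in any library, miR-4423-3p had at most 1 count, and miR-4423-5p, from a primate miRNA of airway epithelium, stood at 1.17 to 2.40 CPM in control and 0.911 to 1.67 CPM in PRMT1 libraries. Of its 9 tested names 0 passed the threshold, 5 lay above 0 and 4 below. The list summed to 156.6 to 199.7 CPM in control and 123.8 to 136.3 CPM in PRMT1 libraries, most of it miR-449a. MiR-205-5p, a marker of airway basal cells, lay between 3.89 and 6.09 CPM in control and, not overlapping, between 6.27 and 8.78 CPM in PRMT1 libraries (log2 0.72, SE 0.31, edgeR adjusted p = 0.741). It was named after its values were seen, from the epithelial list whose names lay on both sides of 0 with a median log2 fold change of 0.01, and 10.2% of all tested names had groups that did not overlap. The part of cell composition in the level of miR-449a was not tested. Summed levels of the blood, muscle and liver lists were 75.5 to 131.2, 9.98 to 13.8 and 0.720 to 1.48 CPM in control, and 73.3 to 99.6, 9.17 to 12.6 and 0.586 to 1.23 CPM in PRMT1 libraries. Endothelial miR-126-3p and miR-126-5p summed to 1777 to 2071 CPM in control and 1665 to 2293 CPM in PRMT1 libraries, nearly all of it miR-126-3p. The tested blood names lay on both sides of 0. MiR-486-5p averaged 83.3 CPM over control libraries, against 61.7 CPM with PRMT1 (log2 -0.43, SE 0.33). MiR-150-5p averaged 7.06 and 12.2 CPM, with PRMT1 libraries higher and no overlap (log2 0.79, SE 0.36), and miR-451a 5.62 and 11.6 CPM with overlap (log2 1.04, SE 0.47). Muscle miR-133a-3p, miR-1-3p and miR-206 averaged 6.90, 3.99 and 0.629 CPM, and liver miR-122-5p 0.903 CPM. None of the names in these lists passed the threshold, 0 of 7 tested.

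The names whose level followed that of miR-34a-5p most closely were sought among 158 others with a mean of at least 100 CPM. The measure was the root mean square difference of log2 CPM, centred on each name's mean, over 6 libraries. It was 0.0485 for miR-532-5p, 0.0647 for miR-10a-5p, 0.0666 for miR-100-5p, 0.0685 for miR-28-3p and 0.0716 for miR-10b-5p, against a median of 0.266 over the 158. For miR-449a, added after its values were seen, the closest were miR-15b-5p (0.146), miR-30a-3p (0.155), miR-26b-5p (0.161), miR-30e-3p (0.165) and miR-93-5p (0.168), against a median of 0.376. Each of these names also had a log2 fold change below 0, from -0.50 for miR-93-5p to -0.27 for miR-30e-3p. The measure spans both groups, so it favours names with a like difference between them. No name followed miR-449a as closely as miR-532-5p followed miR-34a-5p. The median was also larger for miR-449a, so distances cannot be compared directly between these targets.

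**Figure D5:**
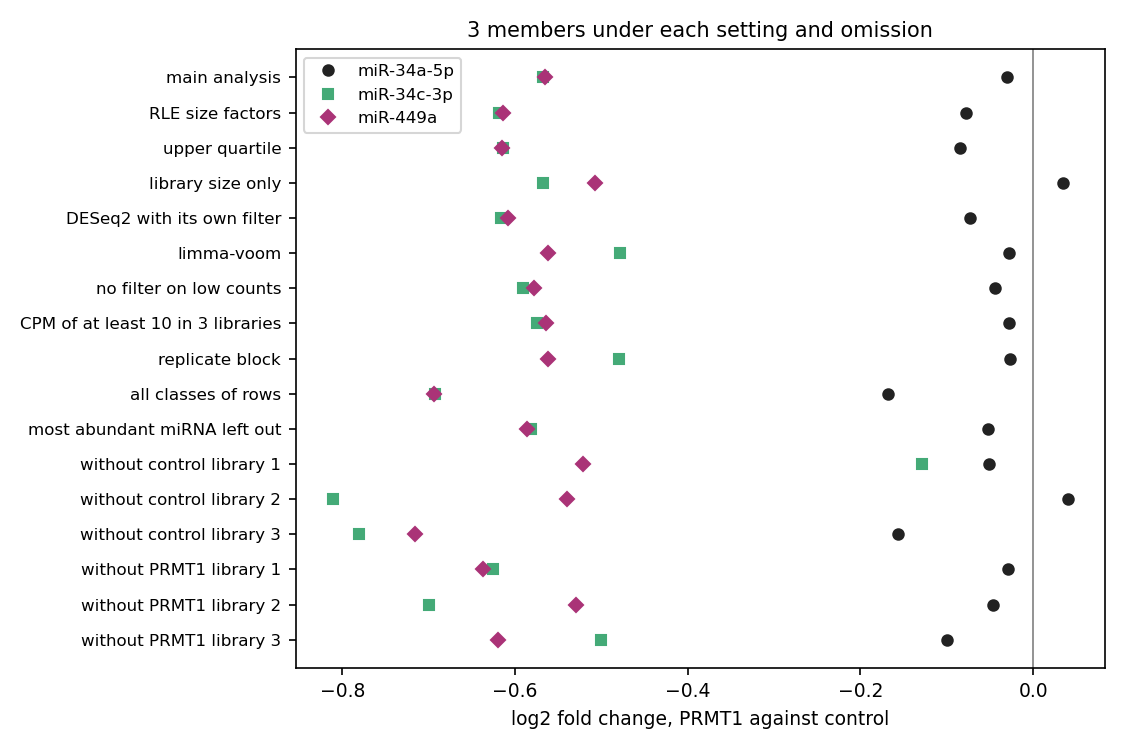
Log2 fold change of PRMT1 against control for miR-34a-5p, miR-34c-3p and miR-449a in the main analysis and under each other setting or omitted library. MiR-449a stays between -0.72 and -0.51, miR-34c-3p moves to -0.13 without control library 1, and miR-34a-5p lies on either side of 0, from -0.17 to 0.04.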

How the data were processed

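Tables of 6 small RNA libraries, 3 control and 3 PRMT1, were used. Per the series' design text, reads came from the BGI-500 and BGI filtered them. Per the submitters' processing notes, HISAT, Bowtie2, RSEM and GRCh37.p13 were used, with neither versions nor roles given. The library protocol in the labels describes mRNA enrichment or rRNA removal, whereas the tables list small RNA classes. How reads with several matches were divided is not known here.

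The deposited counts are whole reads per feature, not normalised, and names without a row were taken as 0. The deposited TPM column matched CPM of the whole library to within 0.005 and served only for that check. Libraries were no copies of each other, with a chi-square per degree of freedom of at least 454.2 over 451 names.

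Rows of class mature, 1727 names, were filtered with filterByExpr, which left 668. They were scaled by TMM and compared with edgeR 4.0.16 (robust quasi-likelihood test, no block, Benjamini-Hochberg threshold 0.05). The test was tried on simulated data with changes larger than that of miR-449a, so the trial does not cover shifts of that size. Each SE is the log2 fold change over the square root of its F, and no member was below the filter. Shares have Wilson intervals. Arm shares had exact permutation tests, two-sided (scipy 1.17.1).

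Alternatives were other scalings, DESeq2 1.42.0, limma-voom (limma 3.58.1), no filter, CPM of at least 10 in 3 libraries, a replicate block, use of every class of rows, removal of the most abundant miRNA, and removal of each library in turn. Leaving single members out of the family, and counts of miR-449a relative to miR-34a-5p, were chosen after seeing the data. The members and lists were chosen with earlier results of these data known, and 2 of the lists are not reported here. The text names all members, the 3 most abundant names of each list reported, names with the seed GGCAGUG or AGGCAGU, precursor families and the 5 names closest to the most abundant member. Names sharing the seed of a 3p member were not sought. Sequences and hairpin positions are from RefSeq on GRCh38.p14, host genes from GENCODE release 29, and no coordinate was taken from the tables.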

Additional observations from a re-analysis of the deposited data

How the results depend on the processing

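The count of 0 members past the threshold held in all 16 alternative fits. Of the names tested in each fit, 4 passed with DESeq2, 9 without a filter and 1 with the replicate block, none of them a member. When a library was left out, 0 to 1 passed. DESeq2 with its own filter and the fit without a filter also covered names outside the 668, so these counts are not over the same names. Replicate numbers did not pair the libraries: deviations from the group means correlated at -0.143, 0.177 and -0.149 where numbers matched and at -0.127 to 0.259 where they did not, and the block changed no call of a member (miR-449a -0.56, miR-34a-5p -0.03, miR-34c-3p -0.48). MiR-449a, miR-34c-3p, miR-34a-3p and miR-34b-5p kept their direction in every fit that tested them. The strict filter left out 6 members. Use of all classes of rows moved the median over the 668 tested names from 0.043 to -0.0935, and the values under it include that shift. Directions turned in 19 of 138 alternative values, with the cause not tested. Among the members that turned, miR-34b-3p had the main value furthest from 0, at 0.28, and it turned without control library 2. By setting, miR-34a-5p was at 0.035 with library size only, miR-34c-5p at -0.014 with upper quartile and -0.094 with all classes of rows, and miR-449b-5p at -0.057 with all classes. MiR-449c-5p was at -0.00014 with RLE, -0.017 with upper quartile, -0.00061 with limma-voom and -0.11 with all classes. When a library was left out, log2 fold changes ran from -0.16 to 0.040 for miR-34a-5p, -0.12 to 0.71 for miR-34b-3p, -0.25 to 0.51 for miR-34c-5p, -0.23 to 0.37 for miR-449b-5p and -0.22 to 0.24 for miR-449c-5p. The difference in the share of multiciliated-cell names, -1.02 percentage points, was -0.933 with 5p names only, -0.0704 without miR-449a and -1.20 to -0.78 when a library was left out. That of the summed family, -135 CPM, was -46.4 CPM of all counts, 58.4 CPM of known miRNA counts with no scaling and 423.5 CPM without the most abundant miRNA. These scales differ, with control means of 4388, 2319, 4290 and 9934 CPM in that order. On the main scale the difference ran from -370.3 (without control library 3) to 120.8 CPM (without control library 2) when a library was left out. The difference in the 5p share of miR-34b ran from -11.2 to 5.18 percentage points when a library was left out. That of miR-34c ran from 3.635 (without control library 1) to 19.2 (without control library 2). Names under 10 CPM rest on 7 to 171 counts per library, which limits what could be detected.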
